A study of Mus musculus with 6 samples.

Results

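Dermal fibroblasts labelled RORγ-/- were compared with wild-type (RORγ+/+) fibroblasts after both had received the lumisterol derivative 20(OH)L3, with 1 RNA-sequencing library for each genotype. The deposited table of 46958 rows gives FPKM, fragments per kilobase of transcript, scaled to library size, for 6 libraries. A row entered the comparison when it carried a single gene symbol and reached 5 FPKM in either of the 2 libraries, which left 8837 of 45724 single-symbol rows. For each row the log2 ratio of FPKM + 1, labelled knockout over wild type, was taken. Both groups were fibroblasts from the dermis of mice 1-2 days old, pooled from several animals, used at early passage and kept with 100 nM of 20(OH)L3 for 24 h. Ethanol, the solvent, was at 0.1% and the charcoal-stripped serum at 10%. The same genotypes also received 20(OH)Cholesterol or 20(OH)7DHC at the same dose and for the same time, 1 library each, and these gave the other genotype ratios. Cells with ethanol alone were not analysed here, so no value below is set against an untreated baseline. With 1 library a side there is no replicate error and no test, and every count below is a description of these libraries. Differences are called higher or lower where they reached 2-fold, a log2 ratio of at least 1 or at most -1.

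RORγ is a nuclear receptor of the retinoic acid-related orphan receptor family that binds DNA as a monomer and takes sterols in its ligand pocket. Intermediates of cholesterol synthesis and hydroxylated sterols can act on it as agonists or inverse agonists, and it is known for driving interleukin-17 production in T helper cells and for tuning clock genes. Lumisterol forms from previtamin D in skin under ultraviolet light and is a stereoisomer of 7-dehydrocholesterol. The enzyme CYP11A1 adds a hydroxyl group to its side chain to give 20(OH)L3. Dermal fibroblasts make the collagen-rich matrix of the skin and release chemokines and acute-phase proteins when stimulated.

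Depth could be estimated because 96.8% to 98% of the low values in each library came out as whole numbers of fragments, within 0.05 of a fragment. The estimate was 9050000 fragments in the 20(OH)L3 library labelled knockout and 12550000 in the wild-type 20(OH)L3 library, and 7750000 to 13350000 in the other 4. For a transcript of 1 kb, a single fragment gave 0.138 FPKM in the library labelled knockout and 0.0996 FPKM in the wild-type library of the 20(OH)L3 pair. How far the values would vary between repeated cultures is unknown. Vim, which encodes the mesenchymal filament vimentin, had 4074 FPKM in the library labelled knockout and 3345 FPKM in wild type with this sterol. Of the 11 fibroblast markers kept, 9 were lower in the library labelled knockout, with a median log2 ratio of -2.14 and a summed level over all their rows of 5114 FPKM against 8042 FPKM in wild type. Markers of some other cell types were near 0 in both libraries. No melanocyte or endothelial marker reached 5 FPKM, their summed levels were 4.2 and 4.56 FPKM in the library labelled knockout against 1.15 and 2.90 FPKM in wild type, and Ptprc, Cd3e, Adipoq, Plin1, Dct and Cldn5 were listed at 0 in both. Summed keratinocyte markers had 25.4 FPKM in the library labelled knockout and 33.9 FPKM in wild type, and macrophage and leukocyte markers 14.4 FPKM in the library labelled knockout and 14.9 FPKM in wild type. Markers of adipocytes (all of it Fabp4), skeletal muscle, smooth muscle and pericytes, and Schwann cells summed to 35.3, 54.8, 117 and 19.2 FPKM in the library labelled knockout, against 1.83, 13.5, 39.4 and 7.81 FPKM in wild type. The sums of these 4 lists were thus higher in the library labelled knockout. They were led by Mcam at 69.9 FPKM and Mylpf at 51.6 FPKM, against 13.2 and 11.4 FPKM in wild type. Only 1 or 2 rows of each list were kept. Members not kept went both ways, such as Sox10 at 2.41 FPKM against 0 in wild type, and Mbp at 0.143 FPKM against 2.41 FPKM. Mylpf has a transcript of 766 nt, in a length class raised in this library, and the part of length in its value was not tested. The part of cells of these types in other results was not tested. In a culture, fewer cells of a type and less RNA per cell cannot be told apart. The Y-linked Eif2s3y had 1.41 FPKM in the library labelled knockout and 35 FPKM in wild type. Uty, another Y-linked gene, was listed at 0 in all libraries labelled knockout, against 3.96 to 4.27 FPKM in the wild-type libraries. These genes were thus low or at 0 in the libraries labelled knockout and present in wild type, while Zfy1 and Usp9y were listed at 0 in all 6. The part of this difference between the cell pools in other results was not tested.

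Under 20(OH)L3, 1756 of 8837 rows (19.9%) were higher and 1417 (16%) were lower in the library labelled knockout, with a median log2 ratio of 0.09 over all rows, so 35.9% of rows differed by 2-fold in either direction. The counts of higher and lower rows in each list below are to be read beside these shares. The same rows gave 1374 higher (15.5%) and 1264 lower (14.3%) under 20(OH)Cholesterol, 29.9% in all. Under 20(OH)7DHC they gave 343 higher (3.88%) and 877 lower (9.92%), 13.8% in all. The spread of the ratios was widest under 20(OH)L3, with an SD over rows of 1.46 against 1.25 under 20(OH)Cholesterol and 0.99 under 20(OH)7DHC, in rows chosen by the 20(OH)L3 libraries. At 4-fold, 440 rows were higher and 551 lower under 20(OH)L3. Of the 1756 higher rows, 61.0% were also higher under 20(OH)Cholesterol and 12.8% under 20(OH)7DHC. These shared rows made up 78.0% and 65.6% of the higher rows of those sterols. Of the 1417 lower rows, 65.0% were also lower under 20(OH)Cholesterol and 47.4% under 20(OH)7DHC, and they were 72.9% and 76.6% of the lower rows of those sterols. Across all 8837 rows, the ratio under 20(OH)L3 had a Pearson correlation of 0.72 with that under 20(OH)Cholesterol and 0.55 with that under 20(OH)7DHC. Across the 7737 rows of at least 1 kb the values were 0.87 and 0.73. The 3 ratios share no library.

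**Figure D1:**
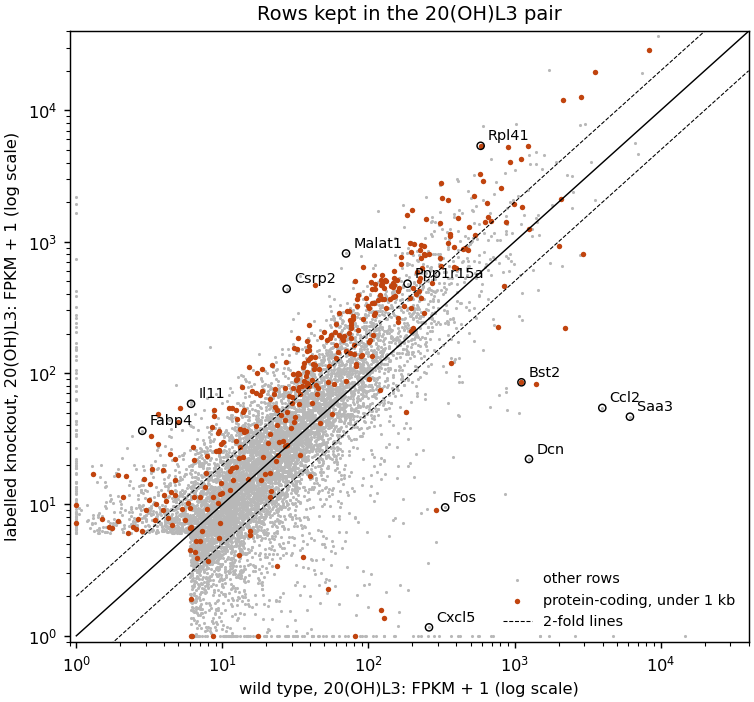
Each point is 1 of the 8837 rows, with FPKM + 1 in the 20(OH)L3 library labelled knockout on the vertical axis and in the wild-type 20(OH)L3 library on the horizontal axis, both on log scales; red points are protein-coding rows under 1 kb. Most red points lie above the solid line of equality, while Saa3, Ccl2, Dcn and Cxcl5 lie far below the lower dashed line of 2-fold.

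Among rows of at least 1 kb, the higher genes with the largest ratios were of mixed kinds. The values of 3 libraries of a genotype are given here in the order 20(OH)L3, 20(OH)Cholesterol and 20(OH)7DHC. Csrp2 (chromosome 10, 110919789 to 110939622 on GRCm38), which encodes a LIM-domain protein of smooth muscle and mesenchymal cells, had 437, 97 and 153 FPKM in the libraries labelled knockout, against 26.5, 28.5 and 23.4 FPKM in wild type. The log2 ratio of Csrp2 was 3.99 under 20(OH)L3, 1.73 under 20(OH)Cholesterol and 2.66 under 20(OH)7DHC. Among the libraries labelled knockout, that with 20(OH)L3 stood highest. Fabp4, a fatty acid carrier of adipocytes and other cells, had 35.3, 13.6 and 24.2 FPKM in the libraries labelled knockout and 1.83, 3.42 and 1.76 FPKM in wild type. Il11, a cytokine of the interleukin-6 family, had 57.4, 34.9 and 20.1 FPKM in the libraries labelled knockout and 5.1, 4.77 and 4.82 FPKM in wild type. For Fabp4 and Il11 the 20(OH)L3 library labelled knockout was again the highest of its genotype. The cell adhesion genes Cadm1 and Cadm4 had log2 ratios of 3.96 and 3.46 under 20(OH)L3. Cadm1 had a larger ratio still under 20(OH)7DHC, at 4.33. The noncoding nuclear RNA Malat1 had 813, 1112 and 164 FPKM in the libraries labelled knockout and 69.2, 75.5 and 51.6 FPKM in wild type, so that its high level was shared with 20(OH)Cholesterol more than with 20(OH)7DHC. The acetyltransferase gene Crebbp, with 44.2, 54.8 and 5.85 FPKM in the libraries labelled knockout and 2.79, 7.73 and 4.44 FPKM in wild type, had the same order of sterols among the labelled knockouts, and its 20(OH)7DHC library labelled knockout overlapped wild type. The others of the 12 were Msh5, Rdm1, Lyrm9, Pet100 and Akr1c19, with log2 ratios of 3.24 to 3.76.

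The 12 lowest ratios belonged mostly to secreted inflammatory proteins and antiviral genes. Saa3, an acute-phase apolipoprotein, had 45.6, 35.6 and 0.258 FPKM in the libraries labelled knockout, against 6163, 10480.0 and 5765 FPKM in wild type. Its log2 ratio was -7.05 under 20(OH)L3, -8.16 under 20(OH)Cholesterol and -12.16 under 20(OH)7DHC, so the difference was smallest with 20(OH)L3 although it was among the largest of that pair. Ccl2, a chemokine for monocytes, had 53.3, 657 and 17.1 FPKM in the libraries labelled knockout and 3986, 4001 and 3933 FPKM in wild type. Wild type held Ccl2 within a narrow range, while the libraries labelled knockout ranged widely with the sterol. The neutrophil chemokines Cxcl5 and Cxcl1 had 0.16 and 11.1 FPKM in the 20(OH)L3 library labelled knockout, against 259 and 857 FPKM in wild type. Lcn2, an iron-scavenging lipocalin, had 0.187 FPKM there against 159 FPKM in wild type, and at such a level a few fragments set the value. Mfap4, a microfibril protein of elastic fibres, had 0.506, 6.87 and 1.52 FPKM in the libraries labelled knockout and 161, 270.0 and 189 FPKM in wild type, lowest with 20(OH)L3. Ch25h, the enzyme that makes 25-hydroxycholesterol, had 1.44, 5.39 and 1.5 FPKM in the libraries labelled knockout and 162, 231 and 187 FPKM in wild type. The remaining members of the 12, Ifit3, Xaf1, Cxcl10, Oasl2 and Ifit1, are genes of the interferon response, and Ifit3 was listed at 0 in the 20(OH)L3 library labelled knockout against 112 FPKM in wild type.

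To find what differed under 20(OH)L3 from the other sterols, a row was taken as set apart when its ratio lay at least 1 log2 unit beyond the nearer of the other 2 ratios. Upward, 314 of 8837 rows (3.55%) met this, and downward 168 (1.9%). By the same rule on the same rows, 175 (1.98%) were set apart upward and 147 (1.66%) downward under 20(OH)Cholesterol, 322 in all (3.64%). Under 20(OH)7DHC the counts were 324 (3.67%) and 819 (9.27%), 1143 in all (12.9%), so 20(OH)L3, at 482 rows (5.45%), had fewer than 20(OH)7DHC. Among 7981 protein-coding genes of at least 1 kb with 5 FPKM in any library, the shares were 2.96% under 20(OH)L3, 3.12% under 20(OH)Cholesterol and 9.47% under 20(OH)7DHC. The library that stood apart was more often that of the labelled knockout. A library was counted when it lay at least 1 log2 unit outside the other 2 of its genotype, in the direction that moved the ratio. In upward rows this meant a labelled knockout above its others or a wild type below its others. A library outside in the opposite direction was not counted, as with wild type in Suco. Of the 314 upward rows, 188 had only the 20(OH)L3 library labelled knockout counted, 16 only the wild-type library, 8 both and 102 neither. Of the 168 downward rows, the same counts were 64, 47, 6 and 51. Short rows filled much of both groups. Transcripts under 500 nt accounted for 94 of the upward and 67 of the downward rows, small RNA genes for 35 and 42, and pseudogenes for 52 and 12, and 166 and 82 were protein-coding.

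**Figure D2:**
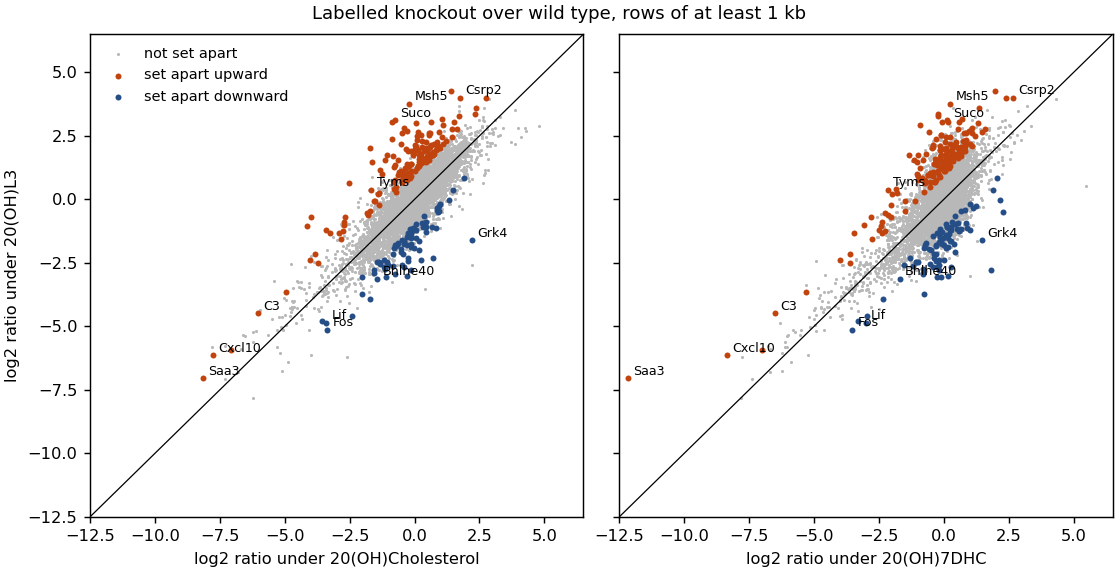
Each point is a row of at least 1 kb, with its log2 ratio under 20(OH)L3 on the vertical axis and its log2 ratio under 20(OH)Cholesterol (left) or 20(OH)7DHC (right) on the horizontal axis; every ratio is labelled knockout over wild type. Red points are set apart upward and blue points downward by at least 1 log2 unit from both other sterols, among them Csrp2 and Saa3 above the line of equality and Fos, Lif and Bhlhe40 below it.

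Most genes of cholesterol synthesis, though not all, had their lowest level among the libraries labelled knockout with 20(OH)L3. Cells regulate these genes through the sterol-sensing factor SREBP2, which is held back when sterols are abundant. Of 18 kept rows of the list, 1 was higher and 1, Nsdhl, lower under 20(OH)L3, with a median log2 ratio of -0.27, against 0.47 under 20(OH)Cholesterol and 0.00 under 20(OH)7DHC. The ratio under 20(OH)L3 was the lowest of the 3 in 11 of the 18 rows (61.1%), against 28.6% of all rows. The level in the 20(OH)L3 library labelled knockout was the lowest of its genotype in 12 rows (66.7%, against 29.1% of all rows), while the wild-type 20(OH)L3 library was lowest in 7 and highest in 7. Hmgcs1, a synthase early in the pathway, had 11.1, 23.2 and 16.2 FPKM in the libraries labelled knockout and 23.2, 17.4 and 19.1 FPKM in wild type. Nsdhl, a dehydrogenase that acts on methylated sterols, had 6.54, 20.6 and 12.8 FPKM in the libraries labelled knockout and 15.7, 15.1 and 17.9 FPKM in wild type. Both were lowest in the 20(OH)L3 library labelled knockout among all 6 libraries. Cyp51, which demethylates lanosterol, had 17.4, 38.1 and 26.9 FPKM in the libraries labelled knockout and 20.6, 17.7 and 17.7 FPKM in wild type. The feedback protein Insig1, with 6.73, 16.2 and 8.97 FPKM in the libraries labelled knockout and 13.9, 12.8 and 12.8 FPKM in wild type, was also lowest there. Pmvk, a kinase early in the pathway, was the higher member, at 18.7 FPKM in the 20(OH)L3 library labelled knockout and 6.04 FPKM in wild type, and its transcript is short, at 1194 nt. It was not lowest with 20(OH)L3, nor was Mvk, another kinase of the pathway, at 61.8, 63.1 and 28.7 FPKM in the libraries labelled knockout and 30.5, 29.4 and 24.2 FPKM in wild type. The summed level of the list was 359 FPKM with 20(OH)L3 and 357 FPKM with 20(OH)7DHC in the libraries labelled knockout. With the trend of ratio by transcript length, described further on, subtracted, the median of the list under 20(OH)L3 was -0.01.

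The list of fatty acid synthesis, which SREBP1 is known to serve, had the 20(OH)L3 ratio lowest in 6 of 7 kept rows (85.7%, against 28.6% of all rows). The medians were -0.05 under 20(OH)L3, 0.37 under 20(OH)Cholesterol and 0.15 under 20(OH)7DHC. The desaturase gene Fads2 was set apart downward, with 3.2, 8.18 and 8.09 FPKM in the libraries labelled knockout and 13.6, 13.7 and 14.1 FPKM in wild type. Of 12 kept rows of LXR targets and oxysterol enzymes, 1 was higher and 5 lower under 20(OH)L3, with a median of -0.86, and none was set apart. Among all rows 19.9% were higher and 16% lower. Abcg1, a sterol exporter induced through LXR, had 1.29, 7.78 and 2.2 FPKM in the libraries labelled knockout and 6.46, 7.87 and 7.48 FPKM in wild type, so that 20(OH)L3 and 20(OH)7DHC gave lower values in the labelled knockout and 20(OH)Cholesterol did not. Lpl, which encodes lipoprotein lipase, was the higher member, at 26.6 FPKM in the 20(OH)L3 library labelled knockout and 2.61 FPKM in wild type. Of 7 kept vitamin D and aryl hydrocarbon receptor genes, none was higher and 1 was lower, with a median of -0.5.

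Immediate early genes, which respond to growth factors and stress within minutes, showed the widest genotype gap under 20(OH)L3 of the 3 sterols. Of 20 kept rows none was higher and 16 were lower, with a median log2 ratio of -1.97, against -1.62 under 20(OH)Cholesterol and -1.22 under 20(OH)7DHC. The 20(OH)L3 ratio was the lowest of the 3 in 13 of 20 rows (65%, against 28.6% of all rows). Both sides moved. The 20(OH)L3 library was the lowest of the labelled knockout in 13 rows (65%, against 29.1% of all rows). It was the highest of wild type in 14 (70%, against 37.3% of all rows). Fos, a component of the AP-1 transcription factor, had 8.49, 13.5 and 19 FPKM in the libraries labelled knockout, against 334, 149.6 and 230.2 FPKM in wild type. Its relative Fosb had 6.18, 10.9 and 13.1 FPKM in the libraries labelled knockout and 173, 62.7 and 108 FPKM in wild type. Zfp36, which encodes a protein that destabilises cytokine messages, had 8.15, 15.5 and 17.4 FPKM in the libraries labelled knockout and 249.7, 197 and 181 FPKM in wild type. In each of these 3 genes the 20(OH)L3 libraries were at both extremes, which their choice as the members set apart favours. They were the members set apart, all downward, with log2 ratios of -5.14, -4.60 and -4.78. Dusp1, a phosphatase of mitogen-activated kinases, had 30.4, 33.2 and 57.6 FPKM in the libraries labelled knockout and 186, 107 and 141 FPKM in wild type. Socs3, a cytokine-induced inhibitor of signalling counted in the list of interleukin-17 and interleukin-6 receptor genes, had 2.34, 2.42 and 4.03 FPKM in the libraries labelled knockout and 69.8, 42.5 and 48.4 FPKM in wild type. That list had 8 of 11 rows lower and none higher, with a median of -2.61, and none was set apart. Lif, a cytokine of the interleukin-6 family, had 0.0916, 2.72 and 2.7 FPKM in the libraries labelled knockout and 30.7, 38.7 and 29 FPKM in wild type. It was set apart downward, and 0.0916 FPKM is the value of only a few fragments.

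Clock genes, among them known RORγ targets, were lower by 2-fold or differed by less. Of 10 kept rows none was higher and 5 were lower, with a median of -0.94 under 20(OH)L3, -1.01 under 20(OH)Cholesterol and -0.43 under 20(OH)7DHC. Bhlhe40, a clock repressor that also answers to serum, was the member set apart, with 10.7, 30.1 and 25.4 FPKM in the libraries labelled knockout, against 101, 83.6 and 84.8 FPKM in wild type. The repressors Nr1d1 and Nr1d2 had 9.9 and 1.5 FPKM in the 20(OH)L3 library labelled knockout, against 28.2 and 7.03 FPKM in wild type. The output factors Dbp and Tef had 5.22 and 5.5 FPKM in that library and 12.4 and 27 FPKM in wild type. Per1, Cry2, Rora and Nfil3 had log2 ratios of -0.77 to 0.32, short of 2-fold. Arntl is the clock activator also called Bmal1. It had 20.4, 18.5 and 30.0 FPKM in the libraries labelled knockout and 10.3, 10.5 and 10.5 FPKM in wild type. Its log2 ratio was 0.93 under 20(OH)L3, so the difference stayed under 2-fold with that sterol. A form of the ROR element, AA, any base and then TAGGTCA, was searched on both strands from 250 bases before to 50 bases after each RefSeq gene start. It stands in the windows of 70 of 27025 genes (0.259%) and of 1 of 17 clock genes (5.88%), which is Arntl. The match is a description of the letters and no measured site. It is shown because Arntl is the clock gene that holds it, with the element in capitals. It starts at base 28 of the gene, within chr7:113207528-113207557, plus strand, in RefSeq on GRCm38.p6.
Arntl: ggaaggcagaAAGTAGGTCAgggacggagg

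Interferon-stimulated genes were lower almost throughout, with a median ratio under 20(OH)L3 slightly less negative than under the other sterols. These genes encode antiviral proteins and are switched on by interferon signalling. Of 28 kept rows, 27 were lower and none higher under 20(OH)L3, with a median log2 ratio of -4.38, against -4.72 under 20(OH)Cholesterol and -4.78 under 20(OH)7DHC, where all 28 were lower. Ifi35 was the exception, at 40.1 FPKM in the library labelled knockout and 79.4 FPKM in wild type. The 20(OH)L3 ratio was the highest of the 3 in 16 of 28 rows (57.1%, against 36% of all rows), and 3 members, Isg15, Bst2 and Oasl2, were set apart upward. The 20(OH)L3 library was the highest labelled knockout in 13 rows (46.4%, against 36.7% of all rows) and the lowest wild type in 19 (67.9%, against 38.7% of all rows). The median shifts from the mean of the other sterols were 0.10 log2 units in the library labelled knockout and -0.12 in wild type. Isg15, a ubiquitin-like modifier, had 8.15, 3.03 and 0.813 FPKM in the libraries labelled knockout, against 287, 315 and 298 FPKM in wild type. Bst2, which tethers budding virus to the cell, had 84.1, 43 and 17.6 FPKM in the libraries labelled knockout and 1114, 1175 and 1120.2 FPKM in wild type. Oasl2, of the oligoadenylate synthetase family, had 1.16, 0.142 and 0.247 FPKM in the libraries labelled knockout and 131, 154 and 159.6 FPKM in wild type. For all 3 the wild-type values were close together and the 20(OH)L3 library was the highest labelled knockout, still far below wild type. Isg15 and Bst2 have transcripts of 756 and 792 nt, in the length class that was raised in this library, and the part of length in their values was not tested. Irf7, a transcription factor of the response, had 4.2, 1.52 and 1.96 FPKM in the libraries labelled knockout and 288, 392 and 322 FPKM in wild type. Ifih1, which senses viral RNA, had 0.354, 0.641 and 1.26 FPKM in the libraries labelled knockout and 18, 18.4 and 15.9 FPKM in wild type, and Xaf1 had 1.23, 5.44 and 2.32 FPKM in the libraries labelled knockout and 186, 187 and 195 FPKM in wild type. Irf7 was thus highest with 20(OH)L3 among the libraries labelled knockout, and Ifih1 and Xaf1 were lowest with it.

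The promoters of 4 of these low genes are shown because they carry the interferon-stimulated response element. The element was taken as TTTC, any 2 bases and TTTC again. It was searched on both strands from 250 bases before to 50 bases after each RefSeq gene start and counted also where matches overlap, and it stands in the windows of 16 of 26 genes of the interferon list (61.5%). It stands in 1079 of all 27025 genes (3.99%) and in 241 of the 6473 kept genes with a window (3.72%). Of the genes 2-fold lower under 20(OH)L3, 74 of 942 (7.86%) hold it, and of the genes set apart upward 15 of 172 (8.72%). A match is a description of the letters and no measured site. The 250 bases before the gene start are given 5′ to 3′ on the strand of the gene, from RefSeq on GRCm38.p6, with the element in capitals. Isg15 lies on chr4:156200819-156201068, minus strand, and holds 3 overlapping matches. Bst2 lies on chr8:71537473-71537722, minus strand, with 2 overlapping matches. Cxcl10 lies on chr5:92348890-92349139, minus strand, with 1, and Ifit3 on chr19:34583279-34583528, plus strand, with 2.
Isg15: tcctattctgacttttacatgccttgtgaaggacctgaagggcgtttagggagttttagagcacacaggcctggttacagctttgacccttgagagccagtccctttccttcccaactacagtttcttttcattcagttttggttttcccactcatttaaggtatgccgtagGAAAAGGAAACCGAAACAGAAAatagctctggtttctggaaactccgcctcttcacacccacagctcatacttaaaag
Bst2: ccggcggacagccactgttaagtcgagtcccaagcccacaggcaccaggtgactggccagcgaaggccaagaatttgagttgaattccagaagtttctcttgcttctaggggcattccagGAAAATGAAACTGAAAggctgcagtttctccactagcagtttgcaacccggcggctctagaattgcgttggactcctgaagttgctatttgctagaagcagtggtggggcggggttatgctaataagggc
Cxcl10: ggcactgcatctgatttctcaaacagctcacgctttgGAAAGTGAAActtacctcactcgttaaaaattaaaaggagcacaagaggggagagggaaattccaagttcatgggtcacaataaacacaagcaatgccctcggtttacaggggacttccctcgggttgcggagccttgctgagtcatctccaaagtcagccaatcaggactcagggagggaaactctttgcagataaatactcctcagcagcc
Ifit3: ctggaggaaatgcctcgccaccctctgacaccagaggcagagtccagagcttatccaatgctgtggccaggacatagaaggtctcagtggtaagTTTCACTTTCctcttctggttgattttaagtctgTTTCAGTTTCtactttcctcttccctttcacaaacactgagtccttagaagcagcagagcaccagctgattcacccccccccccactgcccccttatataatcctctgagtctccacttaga

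Chemokines and acute-phase genes were lower under 20(OH)L3 too, and the chemokine median lay between those of the other sterols. Of 20 kept chemokine and cytokine rows, 17 were lower and 2, Il11 and Il34, were higher, with medians of -3.84 under 20(OH)L3, -2.88 under 20(OH)Cholesterol and -4.64 under 20(OH)7DHC. Cxcl10, a chemokine induced by interferon whose promoter is printed above, had 2.59 FPKM in the 20(OH)L3 library labelled knockout, 0.521 FPKM in that with 20(OH)Cholesterol and 0 in that with 20(OH)7DHC, against 253, 333 and 329 FPKM in wild type. It was set apart upward. Ccl7, a monocyte chemokine, had 81.9, 724 and 20.5 FPKM in the libraries labelled knockout and 1398, 1279.6 and 1198 FPKM in wild type, an order of sterols shared with Ccl2. Il6 had 10.5, 3.08 and 7.49 FPKM in the libraries labelled knockout and 52.7, 64.7 and 49 FPKM in wild type, highest with 20(OH)L3 among the labelled knockouts. All 9 kept acute-phase and complement rows were lower, with a median of -4.63. C3, the central complement component, had 11.5, 4.65 and 2.36 FPKM in the libraries labelled knockout and 281, 374 and 303 FPKM in wild type. C3 and Saa3 were set apart upward. For C3 the library labelled knockout was clearly highest with 20(OH)L3, while for Saa3 neither 20(OH)L3 library lay 1 log2 unit outside the others of its genotype. Of 12 NF-κB pathway rows 10 were lower and none higher, with a median of -1.74, and of 15 antigen presentation rows 12 were lower and none higher, with a median of -2.96.

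Matrix genes had lower medians under 20(OH)L3 than under the other sterols. Of 14 kept collagen rows 9 were lower and none higher, with median log2 ratios of -1.5 under 20(OH)L3, -1.21 under 20(OH)Cholesterol and -0.59 under 20(OH)7DHC. The 20(OH)L3 ratio was the lowest of the 3 in 9 rows (64.3%, against 28.6% of all rows). The 20(OH)L3 library was the lowest labelled knockout in 10 (71.4%, against 29.1% of all rows). It was also the lowest wild type in 10 (71.4%, against 38.7% of all rows). Col1a1, a chain of type I collagen, had 254, 548 and 439 FPKM in the libraries labelled knockout, against 1124, 1459 and 1347 FPKM in wild type. Col1a2, the other chain of that collagen, had 51.5, 182 and 95.6 FPKM in the libraries labelled knockout and 881, 1062 and 988 FPKM in wild type. Within both genotypes the 20(OH)L3 library had the lowest value of each. Col11a1, a fibril-forming collagen and the member set apart, had 19.9, 46.1 and 56.4 FPKM in the libraries labelled knockout and 57.5, 57.1 and 63.2 FPKM in wild type, so wild type hardly varied. Of 32 matrix glycoproteins and proteoglycans 20 were lower and none higher, with medians of -1.64, -1.24 and -0.88 in the order of sterols above. Vcan, the large proteoglycan versican, had 44.3, 77.6 and 142 FPKM in the libraries labelled knockout and 105, 86.5 and 94.6 FPKM in wild type. The fibronectin gene Fn1 had 593, 936 and 1890.0 FPKM in the libraries labelled knockout and 917, 961 and 916 FPKM in wild type. Vcan was set apart downward, and neither gene was low with 20(OH)7DHC. Dcn, the small proteoglycan decorin, had 21.2, 5.74 and 16.6 FPKM in the libraries labelled knockout and 1254, 1489 and 1148 FPKM in wild type. Its highest labelled knockout was the 20(OH)L3 library. The median transcript of the collagen list was 6190 nt, in a length class that read low in this pair. With the trend by length subtracted, the medians under 20(OH)L3 were -1.06 for collagens and -1.18 for the glycoproteins. Of 19 proteases and inhibitors 1 was higher and 9 lower, with a median of -0.83. Mmp13, a collagenase, had 2.93, 0.677 and 0.0303 FPKM in the libraries labelled knockout and 6.98, 10.2 and 7.71 FPKM in wild type. Mmp11, also called stromelysin-3, had 225, 145 and 106 FPKM in the libraries labelled knockout and 54.1, 72.9 and 65 FPKM in wild type. Both were set apart upward, along with Mmp3. Adamts1, which cleaves versican, was set apart downward, with 7.05, 15.9 and 25.4 FPKM in the libraries labelled knockout and 35.1, 29.1 and 31.9 FPKM in wild type.

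Genes of cell division were lower as under the other sterols, but part of DNA replication was less so. Of 21 kept mitosis rows 16 were lower and none higher, with a median of -1.77, and of 7 BRCA1 and recombination repair rows 6 were lower and none higher, with a median of -1.53. Of 22 DNA replication rows 9 were lower and 1 higher under 20(OH)L3, with a median of -0.81, against -1.16 under 20(OH)Cholesterol, where 12 were lower, and -1.25 under 20(OH)7DHC, where 15 were lower. Tyms, thymidylate synthase, had 62.9, 16.5 and 11.6 FPKM in the libraries labelled knockout, against 48.2, 54.9 and 55.5 FPKM in wild type. Gins1, a subunit of the replicative helicase complex, had 10.1, 1.92 and 2.6 FPKM in the libraries labelled knockout and 4.54, 6.05 and 6.34 FPKM in wild type. Rfc3, a subunit of the clamp loader, had 38.6, 16.8 and 12.9 FPKM in the libraries labelled knockout and 31.1, 28.4 and 22.7 FPKM in wild type. In these 3, the members set apart, the 20(OH)L3 library labelled knockout exceeded all wild-type values while the other labelled knockouts lay below them. Mcm5, a subunit of the replicative helicase, had 5.45, 5.36 and 5.83 FPKM in the libraries labelled knockout and 19.2, 21.1 and 18.9 FPKM in wild type, and the 3 sterols lay close together in both genotypes.

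The integrated stress response, in which the factor ATF4 raises amino acid synthesis and feedback genes, was higher in the library labelled knockout in part. Of 18 kept rows 9 were higher and 1 lower, with medians of 0.88 under 20(OH)L3, 0.20 under 20(OH)Cholesterol and 0.84 under 20(OH)7DHC. The 20(OH)L3 ratio was the highest of the 3 in 9 rows (50%, against 36% of all rows). The 20(OH)L3 library was the highest labelled knockout in 10 (55.6%, against 36.7% of all rows). Ppp1r15a, which restores translation by directing dephosphorylation of eIF2α, had 478, 201 and 195 FPKM in the libraries labelled knockout, against 184, 218 and 187 FPKM in wild type. It was set apart upward, with the 20(OH)L3 library labelled knockout above 5 others that lay close together. Trib3, a pseudokinase induced by ATF4, had 104, 44.8 and 69.9 FPKM in the libraries labelled knockout and 18.5, 19 and 18.3 FPKM in wild type. Ddit3, the stress factor CHOP, had 394, 244 and 189 FPKM in the libraries labelled knockout and 102, 81.5 and 88.2 FPKM in wild type. Ddit4, which inhibits mTORC1, was the lower member, with 22.2 FPKM in the 20(OH)L3 library labelled knockout and 109 FPKM in wild type. Heat shock genes had 3 of 13 rows higher and none lower, with a median of -0.16. NRF2 targets had 2 of 14 higher and 1 lower, with a median of 0.46. Hypoxia and glycolysis genes had none of 22 higher and 12 lower, with a median of -1.02. For comparison, 19.9% of all rows were higher and 16% lower, and the heat shock and NRF2 shares of higher rows were near the first.

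Contractile and adipocyte lists had positive medians under all 3 sterols. Of 20 contractile and myofibroblast rows 9 were higher and none lower under 20(OH)L3, with a median of 0.97, against 1.19 under 20(OH)Cholesterol and 0.72 under 20(OH)7DHC. Tpm2, a tropomyosin, had 2898, 2486 and 1390.2 FPKM in the libraries labelled knockout and 411, 288 and 330.2 FPKM in wild type. The smooth muscle actin gene Acta2 had 7769, 9075 and 7181 FPKM in the libraries labelled knockout and 2787, 2206 and 2507 FPKM in wild type. Neither gene was set apart. Of 19 adipocyte genes listed, 7 rows were kept, and 6 of these were higher and none lower, with a median of 1.46. Fabp4, Lpl and Pparg reached 5 FPKM only in the 20(OH)L3 library labelled knockout. The filter thus let them in through their high side, and the count and median depend on it. Pparg, the master regulator of fat cells, had 7.3, 2.3 and 12.3 FPKM in the libraries labelled knockout and 0.304, 0.514 and 0.581 FPKM in wild type, lowest with 20(OH)Cholesterol among the labelled knockouts. Of 29 cornified envelope and keratin genes listed, 8 rows were kept, and 5 of these were higher and 1 lower, with a median of 2.68. Here too Krt7, Lce1f and Lce1h entered only through the library labelled knockout, and Ivl only through wild type. Krt7, a simple-epithelial keratin, was set apart upward, with 6.13, 0.804 and 1.88 FPKM in the libraries labelled knockout and 0.272, 0.674 and 0.263 FPKM in wild type. The Schwann cell marker S100b was also set apart upward, with 13.1, 2.21 and 5.32 FPKM in the libraries labelled knockout and 5.32, 7.08 and 5.2 FPKM in wild type.

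Positional and signalling genes gave mixed directions. Of 19 HOX rows 8 were higher and 3 lower, with medians of 0.80 under 20(OH)L3, 0.47 under 20(OH)Cholesterol and 0.55 under 20(OH)7DHC. Hoxa5 was set apart upward, with 13.2, 3.23 and 7.73 FPKM in the libraries labelled knockout and 3.31, 6.46 and 5.33 FPKM in wild type. Hoxa9, Hoxa10 and Hoxa11, further along the same cluster, had 2.1, 2.84 and 0.463 FPKM in the 20(OH)L3 library labelled knockout, against 15.8, 21 and 11.2 FPKM in wild type. Other positional factors had 1 of 13 rows higher and 5 lower, with a median of -0.38. TGF-β and BMP genes had 2 of 24 rows higher and 6 lower, with a median of -0.26. Wnt genes had none of 7 higher and 6 lower, with a median of -2.16. Growth factors of the IGF axis and others had 3 of 20 higher and 13 lower, with a median of -1.19. The shares over all rows were 19.9% higher and 16% lower.

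**Figure D3:**
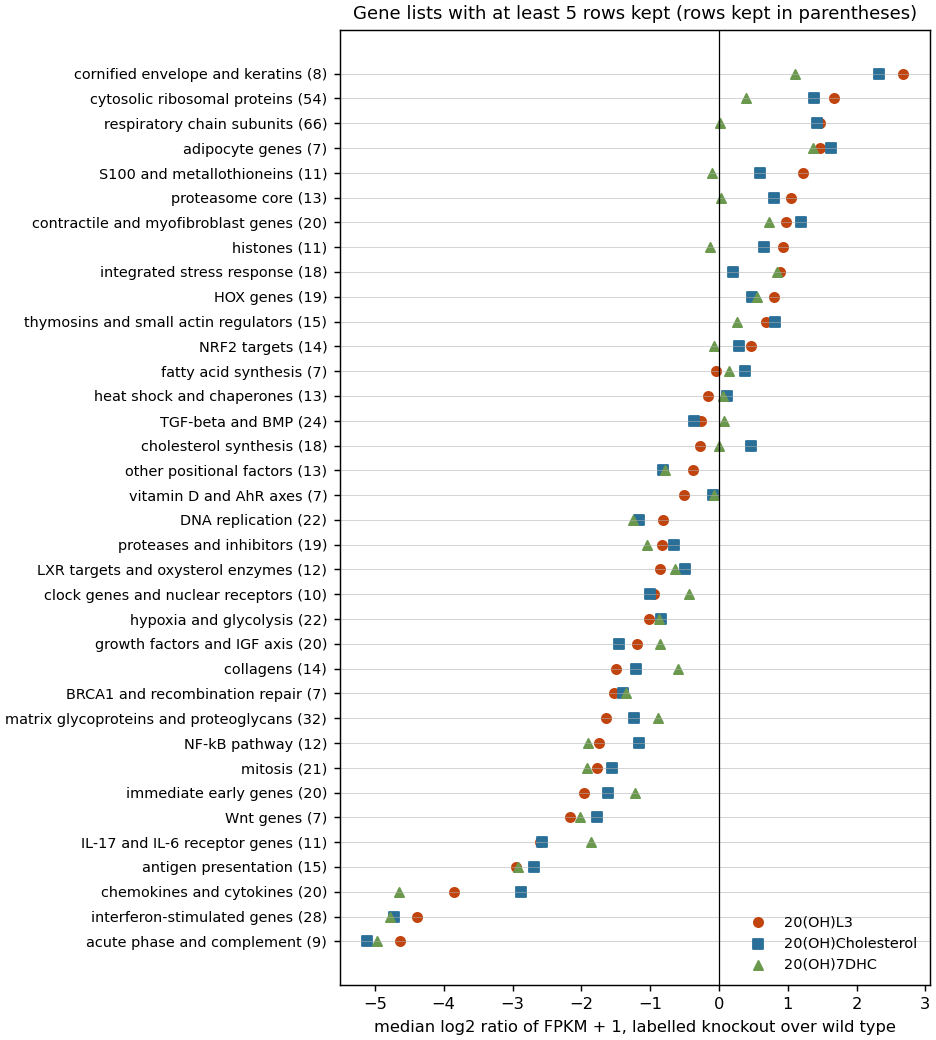
Each row is a gene list with at least 5 rows kept, and the horizontal axis gives the median log2 ratio of labelled knockout over wild type under 20(OH)L3 (circles), 20(OH)Cholesterol (squares) and 20(OH)7DHC (triangles). Circles lie furthest left of the 3 for collagens, immediate early genes and cholesterol synthesis, at -1.5, -1.97 and -0.27, and furthest right for cytosolic ribosomal proteins, at 1.68.

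In most of the 10 rows of at least 1 kb most set apart upward, only the 20(OH)L3 library labelled knockout stood apart. It lay at least 1 log2 unit outside the others of its genotype. The exceptions were Suco and Ptpru, with both 20(OH)L3 libraries that far outside, and Pou2f1, with neither. In Suco both were the highest of their genotype, while in Ptpru the wild-type library was the lowest. All of the 10 but Suco were under 5 FPKM in the wild-type 20(OH)L3 library. They could enter only through a high value in the library labelled knockout, and the ranking used that same excess. The filter and ranking thus favour rows in which this library stands apart. Msh5, a meiotic recombination gene, had 18.8, 2.06 and 1.34 FPKM in the libraries labelled knockout, against 0.465, 2.53 and 0.963 FPKM in wild type. Suco, which encodes a protein of the endoplasmic reticulum, had 285, 8.31 and 14.2 FPKM in the libraries labelled knockout and 32.2, 14.9 and 12.8 FPKM in wild type. For both, the 20(OH)L3 library labelled knockout stood far above the other 5. Ptpru, a receptor tyrosine phosphatase, had 17.5, 4.02 and 4.93 FPKM in the libraries labelled knockout and 2.55, 8.1 and 6.27 FPKM in wild type. The ion transporter gene Slc4a8 had 8.64, 1.32 and 2.34 FPKM in the libraries labelled knockout and 1.37, 6.58 and 3.59 FPKM in wild type, so that in Ptpru and Slc4a8 wild type was lowest where the labelled knockout was highest. The signalling regulator gene Rgs6 and the adhesion receptor gene Adgrl3 had 7.99 and 8.4 FPKM in the 20(OH)L3 library labelled knockout, against 0.0839 and 0.0515 FPKM in wild type. The others of the 10 were Cfap100, Nupr1l, Pou2f1 and Cfap45, at 6.39 to 8.89 FPKM in that library and 0.187 to 2.09 FPKM in wild type. Downward, the 10 were low in the 20(OH)L3 library labelled knockout and reached no more than 17.7 FPKM in wild type. All were under 5 FPKM in the former, so they entered only through wild type. In Grk4, Ccdc191 and Traip only the wild-type library stood apart, being high. In Cep95 both did, and in the others only the library labelled knockout. Cep95, a centrosomal protein gene, had 1.28, 5.25 and 7.08 FPKM in the libraries labelled knockout and 17.7, 6.63 and 6.24 FPKM in wild type. Lin9, a subunit of the complex that drives cell-cycle genes, had 0.359, 2.85 and 2.66 FPKM in the libraries labelled knockout and 7.61, 4.09 and 3.94 FPKM in wild type. Appl2, an endosomal adaptor gene, had 1.62, 8.55 and 7.2 FPKM in the libraries labelled knockout and 13.2, 10.3 and 9.13 FPKM in wild type. In these 3 the 20(OH)L3 libraries held the lowest labelled knockout and the highest wild type. Grk4, a receptor kinase gene, Ccdc191, Wdr37, Traip, Rnf157, Oscp1 and the noncoding Ino80dos made up the rest, with log2 ratios of -3.07 to -1.62. At the edge of the upward rule, Polr2c was just inside, with log2 ratios of 1.54, 0.54 and 0.22 in the order of sterols above, and Zfp369 just outside, with 1.34, 0.34 and 0.20. At the edge of the downward rule, Cacna1g was just inside, with -2.31, -0.24 and -1.31, and Gtf2h2 just outside, with -0.68, 0.46 and 0.31.

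**Figure D4:**
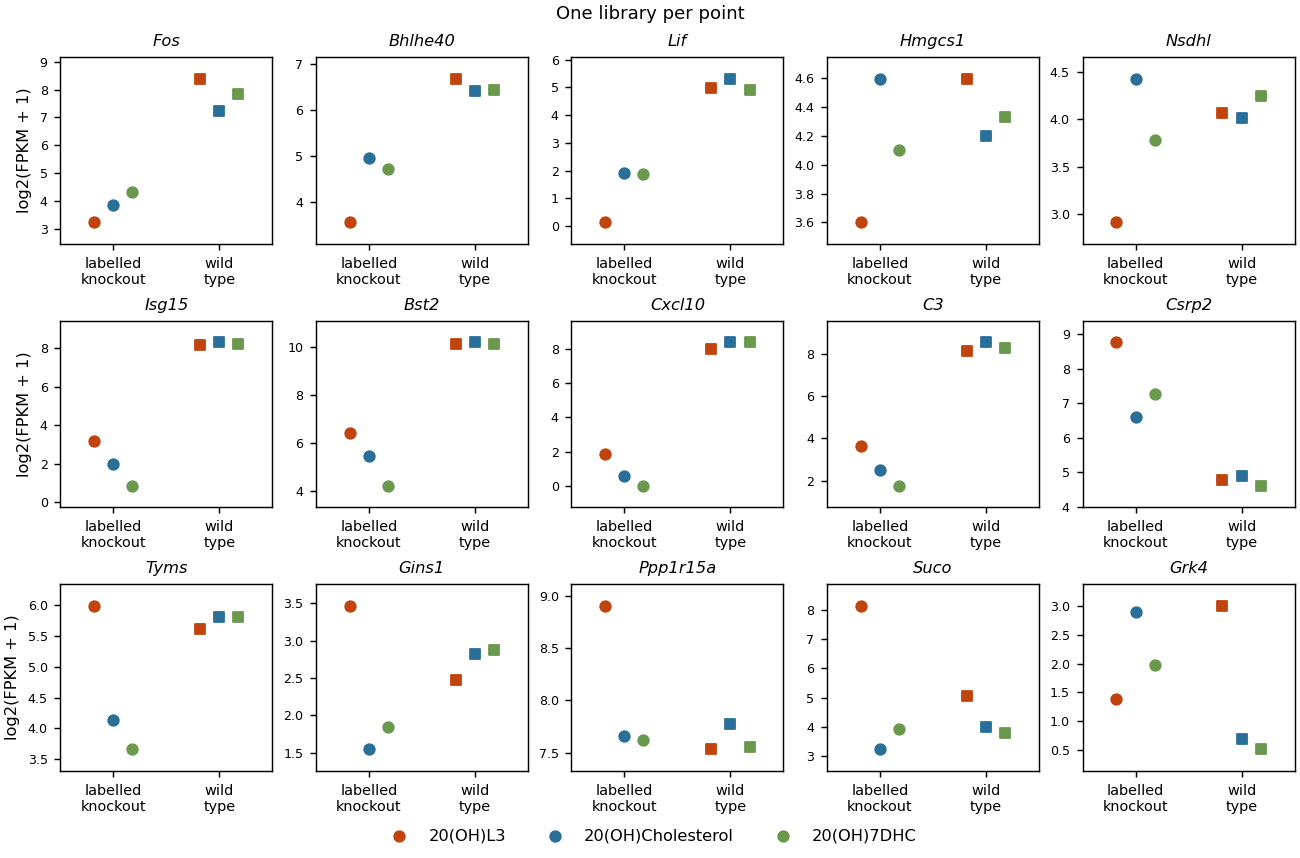
Each panel gives log2(FPKM + 1) of a gene on the vertical axis in the 3 libraries labelled knockout (circles, left) and the 3 wild-type libraries (squares, right), 1 library per point, with colour for the sterol. In Fos, Bhlhe40, Lif, Hmgcs1 and Nsdhl the 20(OH)L3 library (red) is the lowest labelled knockout, and in Isg15, Bst2, Cxcl10, C3, Csrp2, Tyms, Gins1, Ppp1r15a and Suco it is the highest.

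Short transcripts were raised in the 20(OH)L3 library labelled knockout. Among 366 protein-coding rows under 1 kb, 65.6% were higher and 6.83% lower, with a median log2 ratio of 1.43, against 1.15 under 20(OH)Cholesterol and 0.05 under 20(OH)7DHC. The median level of these rows was 99.8 FPKM in the 20(OH)L3 library labelled knockout and 40.6 FPKM in wild type. The medians under 20(OH)L3 stepped down with length, to 0.63 from 1 to 2 kb, 0.06 from 2 to 4 kb, -0.27 from 4 to 6 kb and -0.34 at 6 kb and over. Under 20(OH)Cholesterol the same bins gave 0.55, 0.04, -0.26 and -0.34, and under 20(OH)7DHC they lay between -0.02 and 0.03. The medians thus moved with length under 20(OH)L3 and 20(OH)Cholesterol and hardly under 20(OH)7DHC. Across 8586 rows with a length, the Spearman correlation of ratio and length was -0.32, -0.31 and -0.02 in the order of sterols above. Among coding rows under 1 kb the median under 20(OH)L3 was 0.81 where the mean of the pair was under 20 FPKM, 1.31 from 20 to 100 FPKM and 1.63 at 100 FPKM and over. Coding rows under 1 kb that belong to none of the 6 lists of small proteins had a median of 1.35, over 294 rows. The libraries also differed in depth and in summed FPKM, which was 1775205 in the 20(OH)L3 library labelled knockout and 902962 in wild type. The library labelled knockout with 20(OH)Cholesterol had 1597788, and the other 3 had 866528 to 931596. Their part in the length trend was not tested.

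**Figure D5:**
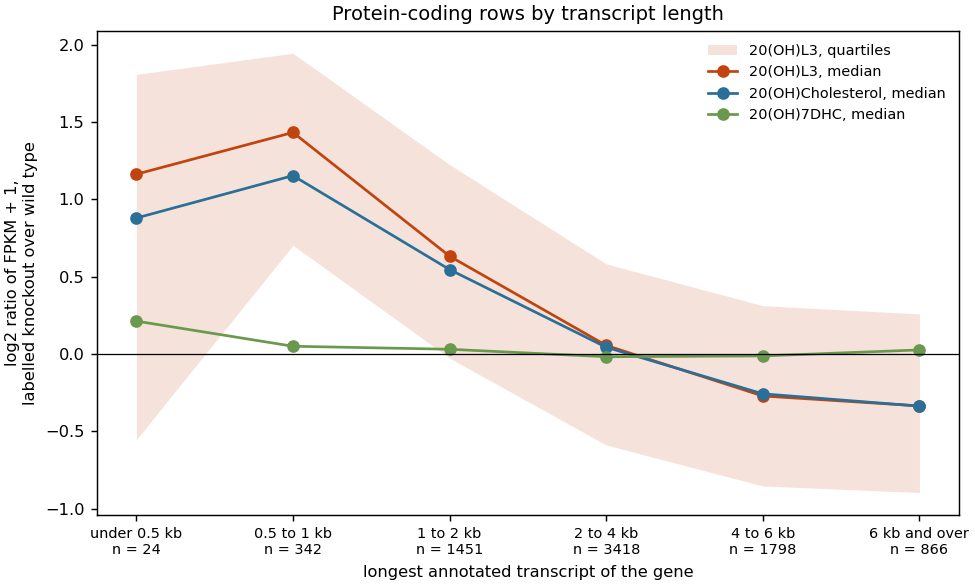
Protein-coding rows are binned on the horizontal axis by the longest annotated transcript, with the number of rows under each bin, and the vertical axis gives the log2 ratio of FPKM + 1, labelled knockout over wild type. Points are medians under each sterol and the band spans the quartiles under 20(OH)L3; the 20(OH)L3 and 20(OH)Cholesterol lines run from 1.43 and 1.15 at 0.5 to 1 kb down to -0.34 at 6 kb and over, while the 20(OH)7DHC line lies between -0.02 and 0.21.

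Small proteins of the ribosome and of the respiratory chain were among the short rows that were higher. Of 54 cytosolic ribosomal protein rows 41 were higher and 1 lower under 20(OH)L3, with medians of 1.68 under 20(OH)L3, 1.38 under 20(OH)Cholesterol and 0.39 under 20(OH)7DHC. Rpl41, the shortest ribosomal protein, had 5368, 2645 and 625 FPKM in the libraries labelled knockout, against 585, 392 and 418 FPKM in wild type. Ribosomal protein genes have many pseudogene copies, so their counts are uncertain. Of 66 respiratory chain rows 48 were higher and none lower, with medians of 1.47, 1.42 and 0.02 in the order of sterols above. Uqcr10, a small subunit of complex III, had 2776, 1377 and 329.5 FPKM in the libraries labelled knockout and 313, 278 and 282 FPKM in wild type. Sdha, a large subunit of complex II with a longer transcript of 2900 nt, had 149.6, 226 and 168 FPKM in the libraries labelled knockout and 251, 170.1 and 188 FPKM in wild type. The short Rpl41 and Uqcr10 were thus high in the 20(OH)L3 library labelled knockout and the longer Sdha was not. With the trend by length subtracted the medians under 20(OH)L3 were 0.66 for the ribosome and 0.72 for the chain. Of 13 proteasome core rows 7 were higher and none lower, with a median of 1.05, and of 11 S100 and metallothionein rows 7 were higher and 1 lower, with a median of 1.22. Of 11 histone rows 5 were higher and none lower, with a median of 0.93, and of 15 thymosin and actin regulator rows 5 were higher and none lower, with a median of 0.68. Over all rows 19.9% were higher and 16% lower. Chchd1, Tmem256 and Mrpl20, for small mitochondrial and membrane proteins, had 467, 1608 and 635 FPKM in the 20(OH)L3 library labelled knockout, against 42.1, 183 and 90.4 FPKM in wild type. The skin barrier genes Lce1g and Lce1h had 109.7 and 52.9 FPKM in that library and 14.2 and 4.1 FPKM in wild type.

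The shortest rows were small nucleolar RNA and microRNA genes, which stood at 0 or well above it. The lowest value above 0 among rows of 70 to 85 nt was 168 FPKM in the 20(OH)L3 library labelled knockout and 95.0 FPKM in wild type, so no lower level could be read for such rows. Rows at 0 stood on both sides, with 88 of 347 rows under 0.5 kb at 0 in the 20(OH)L3 library labelled knockout and 72 at 0 in wild type. Of small RNA genes, 35 were set apart upward and 42 downward. All 8 short rows with the largest ratios were listed at 0 in the wild-type 20(OH)L3 library. Snord55, a guide RNA for methylation of ribosomal RNA (chromosome 4, 117155770 to 117155848), had 2189 FPKM in the 20(OH)L3 library labelled knockout and 0 in the other labelled knockouts, against 0, 0 and 116 FPKM in wild type. Snord104 (chromosome 11, 106500993 to 106501062) had 1950.4 FPKM in that library and 0 in the other labelled knockouts, against 0, 677 and 224 FPKM in wild type. Both were thus present in 1 labelled knockout and in wild type with other sterols. Snord72, within Rpl37, had 742, 522 and 101 FPKM in the libraries labelled knockout, against 0, 103 and 102 FPKM in wild type. Snord65 had 277, 324 and 0 FPKM in the libraries labelled knockout, against 0, 192 and 0 FPKM in wild type. Mir7688 had 1639.6, 3843 and 1118 FPKM in the libraries labelled knockout and 0 in each wild-type library. Mir34c, a microRNA known as a target of p53, had 384, 0 and 131 FPKM in the libraries labelled knockout, Mir763, within Hmga2, had 158, 61.8 and 0 FPKM, and Mir1934 had 263, 0 and 0 FPKM, and all were listed at 0 in wild type. In the other direction, the 20(OH)L3 library labelled knockout was listed at 0 for Gm27483, a row of 71 nt, against 14686 FPKM in wild type, and the other labelled knockouts had 702 and 1225 FPKM. Rnu73b had 0, 351 and 0 FPKM in the libraries labelled knockout, against 1728, 208 and 0 FPKM in wild type. Mir7059 was listed at 0 in all libraries labelled knockout, against 1500.4, 0 and 0 FPKM in wild type. These rows were chosen after their values were seen. All of these short rows count whole genes, and for microRNAs the precursor, and do not tell the mature arms apart, and reads of a host transcript cannot be told apart from those of the small RNA inside it. The 6 mature sequences that RefSeq's table gives for these 4 microRNAs (Mir7688, Mir34c, Mir1934 and Mir763) are shown, from the annotation on GRCm38.p6 and 5′ to 3′, because their rows stood at 0 in wild type; capitals mark the seed, bases 2 to 8, and the 6 sequences have 6 different seeds.
mmu-miR-7688-5p: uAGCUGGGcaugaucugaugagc
mmu-miR-7688-3p: uCUGGCUUaugccuagcuuuc
mmu-miR-34c-3p: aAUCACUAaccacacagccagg
mmu-miR-1934-5p: uCUGGUCCccugcuucguccucu
mmu-miR-1934-3p: aGGAUGACgguggggcugguga
mmu-miR-763: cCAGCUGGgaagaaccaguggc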

How the data were processed

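RNA was sequenced from 6 libraries, 2 genotypes with 3 sterols each, and 1 library per group. The authors deposited 1 table of FPKM per gene; per the submitters' processing notes the tools were STAR 2.5.4b, Cufflinks 2.2.1 and Cuffdiff, with GRCm38. The sources used here do not state the strand setting or the annotation. FPKM divides by transcript length and library size, so short transcripts gain large values from few fragments. The genotypes are as labelled, and a check of them against the values is not reported here.

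Rows with several symbols (1061) or a repeated symbol (173) were left out, and rows needed 5 FPKM in either 20(OH)L3 library. Ratios were log2 of FPKM with a pseudocount of 1, which understates differences of low genes. With 1 library per group no test was made. The transcript length is that of the longest GENCODE M21 transcript on GRCm38, matched for 43747 of 45724 rows and 8586 of the 8837 kept. The length trend was a running median over 301 rows. Promoters and mature microRNAs are RefSeq's on GRCm38.p6.

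The gene lists, members and rules were chosen with earlier results of these data known. Named by rule were the 12 highest and 12 lowest ratios and the 10 most set apart each way (at least 1 kb), 8 short rows, 4 members per list and all kept clock and Y-linked genes. Other genes in the text, among them short coding rows, were chosen after their values were seen. Alternatives were other pseudocounts, filters, scalings, lengths and distances; the filter over all 6 libraries and the median transcript length were chosen after seeing the data. The steps were tested on simulated data. Python 3.11.15, numpy 2.4.6, pandas 2.3.3 and matplotlib 3.10.9 were used.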

Additional observations from a re-analysis of the deposited data

Results flagged for a closer look

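For 3 of the rows named above, the genotype ratio under 20(OH)L3 had one sign and the ratios under both other sterols had the opposite sign, each by at least 2-fold. This difference was not tested, since each ratio rests on 1 library a side. Cfap100, a cilium-associated gene, had 7.54, 0 and 0.187 FPKM in the libraries labelled knockout, against 2.09, 2.15 and 1.43 FPKM in wild type, and its ratio under 20(OH)L3 lay 2.5 log2 units above the nearer of the others. Grk4, a kinase of G protein-coupled receptors, had 1.62, 6.4 and 2.92 FPKM in the libraries labelled knockout, against 7.03, 0.612 and 0.43 FPKM in wild type, and its distance was -3.07. Snord104 had 1950.4 FPKM in the 20(OH)L3 library labelled knockout and was listed at 0 in the wild-type library of that pair, while the libraries labelled knockout with the other sterols were listed at 0. Over all 8837 rows, 5 were higher under 20(OH)L3 and lower under both others by 2-fold, and 4 the reverse, of which 1 and 1 were of at least 1 kb.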

How the results depend on the processing

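Under 20(OH)L3 no list median or named gene ratio of at least 1 log2 unit in either direction changed sign under the alternatives run. Smaller medians and ratios were not checked for a change of sign. With a minimum of 1 FPKM, 2207 rows were lower, 589 were set apart upward and 339 downward. Of these, 492 had the labelled knockout library alone apart in the direction of the ratio, against 252 at the minimum of 5 FPKM. With a minimum of 20 FPKM these were 654, 139, 74 and 103. Among protein-coding rows of at least 1 kb, 1158 rows were higher, 141 and 80 were set apart upward and downward, and 98 had the labelled knockout library alone apart. Compared with 20(OH)Cholesterol alone, 527 rows were set apart upward and 445 downward, and with 20(OH)7DHC alone 1528 and 688, which drop a condition of the rule. At a distance of 2 log2 units 97 and 64 rows remained past it. The median ratio over all 849 rows under 1 kb, 1.19 as processed, was 0.088 with the length trend subtracted, which removes it by construction, and 0.34 over 3883 rows when genes were binned by the median transcript length; the cause of the second was not tested. Counts under a pseudocount of 0.1 FPKM, median-of-ratios scaling and quantile normalization stayed within 1.5 times those reported. Of 196 named gene ratios, 56 moved by over 0.5 log2 units with the pseudocount of 0.1 FPKM, 38 with quantile normalization and 47 of 193 with the length trend subtracted. No paired analysis was possible because the difference under 20(OH)L3 has 1 library a side. Pairing the genotypes by sterol would average over the 3 sterols and was not run. The design limits every value to the libraries sequenced, and rows of 70 to 85 nt under 168 FPKM in the 20(OH)L3 library labelled knockout could not be read.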
